A study of Mus musculus with 6 samples.

Results

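The genes of classical MHC class I antigen processing and loading were compared between colitis mice receiving berberine and colitis mice receiving sulfasalazine. They were chosen by name and comprise 10 of the 18268 genes in the expression table, namely H2-K1, H2-D1, B2m, Tap1, Tap2, Tapbp, Nlrc5, Psmb8, Psmb9 and Psmb10. RNA was sequenced from colorectal tissue of C57BL/6 mice, all of which drank dextran sulfate sodium (DSS), which damages the colonic epithelium, for 7 days. Berberine (BBR), a plant alkaloid, was given by gavage for 6 days to 3 mice, and the other 3 mice had sulfasalazine (SASP), a standard drug for ulcerative colitis, in the same way for 6 days. Both groups thus carried colitis, and untreated colitis mice and healthy mice were not analysed here. Against untreated colitis, the study reported a rise under SASP of some immune response genes, naming Irf1, H2-Q4, H2-T23 and a gene printed as Pamb8. Whether a gene lower in BBR than in SASP fell under BBR or rose under SASP cannot be told from these samples. Values are FPKM, reads scaled to transcript length and to sequencing depth, so levels can be set against each other between genes. The labels do not say whether a sample holds tissue of 1 mouse or a pool, and p-values measure the spread between these 6 samples.

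MHC class I molecules display peptides from inside the cell to CD8 T cells. Proteasomes cut proteins into peptides, the TAP transporter carries the peptides into the endoplasmic reticulum, and tapasin holds an empty class I molecule at the transporter until a peptide has bound. The class I molecule itself is a heavy chain, such as H2-K1 or H2-D1, paired with the light chain beta-2-microglobulin. Interferon gamma is known to raise most of these genes, to exchange catalytic proteasome subunits for inducible ones, and to do so in epithelial cells as well as in leukocytes.

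In the tissue of BBR mice, the transporter subunits, the 3 inducible proteasome subunits and the class I transactivator were lower than in SASP mice, whereas the heavy chain H2-K1 differed by less than the spread between mice. Of the 10 genes, 6 were lower in BBR, 0 were higher and 4 did not pass an adjusted p-value of 0.05 in limma (Benjamini-Hochberg over all 12072 genes tested). Of all tested genes, 5.04% were lower and 3.82% were higher by the same rule (1186 genes lower and 498 higher under median-ratio scaling, against 608 and 461 here). None of the 10 was higher at an unadjusted p under 0.05 either (0 genes in limma). Without SASP mouse 1 or 3, when Nlrc5 was not tested, the count of lower genes fell to 2, and without BBR mouse 3 it was 9. The 3 BBR values of 8 of the 10 genes lay below the 3 SASP values, which held for 16.6% of the tested genes. The median log2 fold change, BBR minus SASP on the scale of log2(FPKM + 1), was -1.56 for the 10 genes and 0.10 for all tested genes. All 10 passed the filter on low values, which asked for 1 FPKM or more in 3 or more of the samples, and Nlrc5 passed it through its SASP values alone. In bulk tissue, fewer cells of a type and less RNA per cell cannot be told apart.

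Promoter sequences were examined because these genes are known to share regulatory elements. Of the 10 genes, 8 had a promoter in the RefSeq table of GRCm38.p6, and Tap2 and Nlrc5 had no entry. Printed are the 250 bases before the start of both heavy chains and of their common light chain, which did not pass the test, and the stretch that separates the starts of Tap1 and Psmb9, both lower in BBR. H2-K1 lies at chr17:34000348-34000597 on the minus strand, H2-D1 at chr17:35262844-35263093 on the plus strand and B2m at chr2:122147437-122147686 on the plus strand. The 225 bases between Tap1 and Psmb9 lie at chr17:34187331-34187555 and are read on the plus strand, towards Tap1, with Psmb9 transcribed from the other end. Capitals mark the half-site of interferon regulatory factors AANNGAAA, the Y box CCAAT and the NF-kB consensus, on either strand.
H2-K1: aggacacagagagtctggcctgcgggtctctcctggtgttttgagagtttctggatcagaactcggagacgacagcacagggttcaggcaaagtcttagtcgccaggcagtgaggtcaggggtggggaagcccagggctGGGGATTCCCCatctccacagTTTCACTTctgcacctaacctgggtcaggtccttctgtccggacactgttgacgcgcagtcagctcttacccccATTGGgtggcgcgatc
H2-D1: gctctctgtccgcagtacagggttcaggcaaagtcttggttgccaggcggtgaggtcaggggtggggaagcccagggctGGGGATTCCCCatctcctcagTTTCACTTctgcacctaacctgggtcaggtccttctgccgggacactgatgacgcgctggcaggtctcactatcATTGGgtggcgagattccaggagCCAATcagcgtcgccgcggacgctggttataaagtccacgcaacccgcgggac
B2m: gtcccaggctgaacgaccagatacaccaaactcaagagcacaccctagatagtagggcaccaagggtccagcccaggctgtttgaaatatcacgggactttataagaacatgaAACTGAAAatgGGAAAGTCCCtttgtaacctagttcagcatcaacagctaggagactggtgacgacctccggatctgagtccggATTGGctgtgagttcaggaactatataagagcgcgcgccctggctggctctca
Tap1 to Psmb9: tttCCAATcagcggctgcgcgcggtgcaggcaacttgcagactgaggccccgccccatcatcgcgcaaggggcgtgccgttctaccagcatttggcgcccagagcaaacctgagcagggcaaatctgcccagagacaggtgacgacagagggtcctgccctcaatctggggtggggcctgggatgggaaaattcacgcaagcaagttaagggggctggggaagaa
H2-K1 and H2-D1 shared a block in which the NF-kB match is followed by the half-site. Of the 190 bases of both windows that could be aligned without gaps, 170 were identical. B2m carried both motifs in the reverse order, and the stretch between Tap1 and Psmb9 carried a Y box but neither of them.

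Motifs were counted in the 250 bases before the start, on both strands. The half-site of interferon regulatory factors was in 3 of the 8 matched promoters, H2-K1, H2-D1 and B2m, and in 21.3% of the 32851 promoters of the table. The NF-kB consensus was in the same 3 and in 3.9% of all promoters, and within H2-K1 and H2-D1 overlapping matches on both strands mark 1 palindromic place. The Y box was in 6 of 8 and in 33.8% of all, and the core of the X2 box, TGACG, was in 5 of 8 and in 17.8% of all. Tap1 and Psmb9 share their stretch, so that 1 Y box and 1 X2 core are counted for both. The gamma-activated site TTCNNNGAA was in 1 of 8, that of Psmb8, and in 7.02% of all. Psmb10 held none of these letters in its window. A match describes the letters and not a bound site, and a window without a match leaves elements elsewhere unseen.

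The class I heavy chains and their light chain were the most abundant of the 10 genes in every mouse. H2-K1 (NCBI Gene ID 14972) was at 817.98, 756.95 and 762.84 FPKM in BBR mice 1, 2 and 3 and at 808.60, 569.75 and 732.28 FPKM under SASP 1, 2 and 3. The groups overlapped, with SASP mouse 2 the lowest of all. Its log2 fold change was 0.16 (SE 0.16, limma adjusted p = 0.52), and the 95% interval ran from -0.23 to 0.55. Its fold change lay between 0.02 and 0.42 over 16 alternatives to the processing and passed the test in none of them.

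H2-D1 (14964), the other classical heavy chain of this strain, was at 529.95, 463.81 and 776.98 FPKM under BBR and at 1079.86, 657.66 and 891.66 FPKM under SASP. BBR mouse 3 lay above SASP mouse 2, so that the groups overlapped. BBR differed from SASP by -0.58 on the log2 scale (SE 0.26, limma adjusted p = 0.174), with an interval from -1.18 to 0.03. Without BBR mouse 3 the change was -0.79 and passed the test (limma adjusted p = 0.0336). Without any other single mouse it did not pass (limma adjusted p from 0.14 to 0.432). Of all stretches of 50 bases in the transcripts, 8.79% of those of H2-K1 and 14.3% of those of H2-D1 also occur in another gene. The division of reads among class I genes is therefore uncertain. These shares count exact matches only, and near matches were not counted.

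B2m (12010) encodes the light chain that every class I heavy chain needs. It was at 472.57, 382.13 and 464.49 FPKM under BBR and at 1550.88, 632.42 and 1130.93 FPKM under SASP. All BBR values lay below all SASP values, but the SASP values spread widely, with mouse 2 the lowest. The log2 fold change was -1.24 (SE 0.32) and narrowly missed the threshold (limma adjusted p = 0.057). It passed without SASP mouse 2 (limma adjusted p = 0.0225) and without BBR mouse 3 (limma adjusted p = 0.0388). Without any other single mouse it moved away from the threshold (limma adjusted p from 0.112 to 0.1675).

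The order of these abundant transcripts differed between the groups. H2-K1 exceeded B2m in each of the 3 BBR mice, and B2m exceeded H2-K1 in each of the 3 SASP mice. H2-D1 exceeded H2-K1 in all SASP mice and in BBR mouse 3, while H2-K1 exceeded H2-D1 in BBR mice 1 and 2. H2-K1, H2-D1 and B2m held the first 3 places in every mouse, and Nlrc5 the last.

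**Figure D1:**
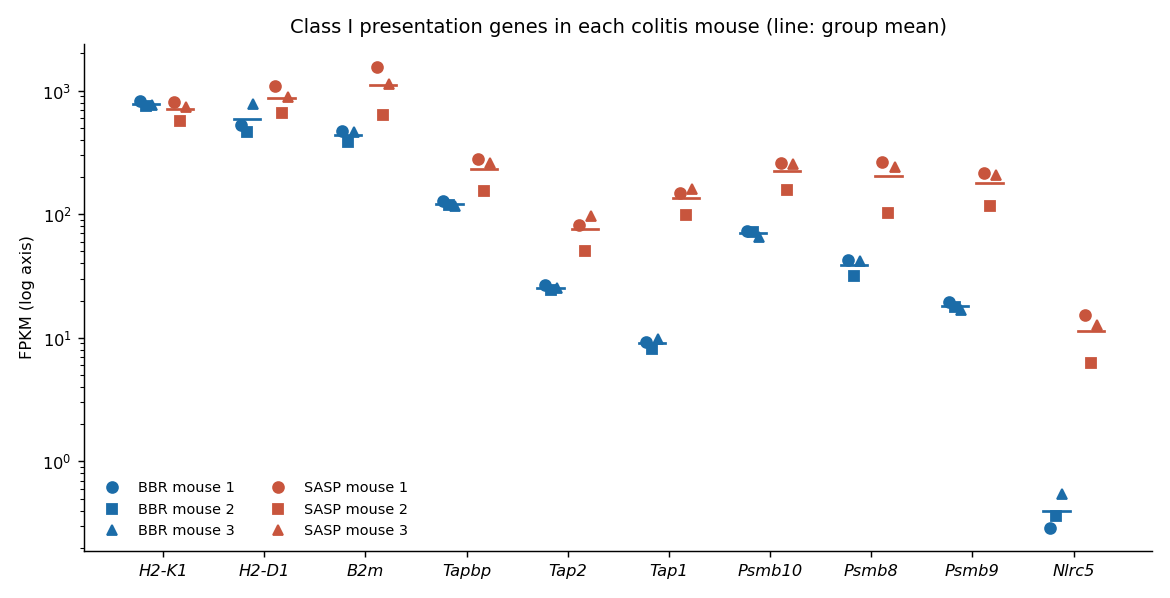
FPKM of the 10 class I presentation genes in each mouse on a log axis, with BBR mice in blue, SASP mice in red, a symbol for each mouse and a line at each group mean. H2-K1 and H2-D1 overlap between the groups, the other 8 genes do not, and SASP mouse 2 (square) is the lowest SASP value for all 10.

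Of the TAP transporter, Tap1 had the most negative log2 fold change among the 10 genes with a pseudocount of 1, and Nlrc5 had it with a pseudocount of 0.1 (-4.47 against -3.86) or 0.01 (-4.76 against -3.87). Tap1 (21354), the first subunit of the peptide pump, was at 9.30, 8.16 and 9.70 FPKM under BBR and at 148.20, 98.51 and 158.82 FPKM under SASP. The lowest SASP value was 10.2 times the highest BBR value. The log2 fold change was -3.73 (SE 0.19, limma adjusted p = 0.000468), rank 21 of 12072 when all genes are ordered from the most negative. The call held under all 16 alternatives, with changes from -3.94 to -3.52.

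Tap2 (21355), the partner subunit without which the pump does not work, differed less. It was at 26.91, 24.41 and 25.08 FPKM under BBR and at 82.12, 50.33 and 95.99 FPKM under SASP. No BBR value reached the SASP range. On the log2 scale the change was -1.49 (SE 0.23, limma adjusted p = 0.0175). Leaving out BBR mouse 1 or 2 removed the call (limma adjusted p = 0.0641 and 0.0501), as did leaving out SASP mouse 1 or 3 (limma adjusted p = 0.0868 and 0.0735).

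The subunits of this heterodimer thus stood in different proportions. The ratio of Tap1 FPKM to Tap2 FPKM within a mouse was 0.346, 0.334 and 0.387 in BBR mice and 1.81, 1.96 and 1.66 in SASP mice. Tap2 was the more abundant transcript in every BBR mouse and Tap1 in every SASP mouse. Log2 ratios, here and below, were computed on FPKM + 1. The difference of the log2 ratios was -2.24, with SDs of 0.10 in BBR and 0.12 in SASP (exact permutation test of 3 against 3, two-sided p = 0.1, the smallest this design allows, and 0.1 after adjustment over 8 ratios).

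Tapbp (21356), which encodes tapasin, was at 126.88, 118.88 and 115.70 FPKM under BBR and at 280.04, 152.96 and 261.82 FPKM under SASP. BBR mice lay below SASP mice, with little room between BBR mouse 1 and SASP mouse 2. The log2 fold change of -0.89 (SE 0.23) missed the threshold (limma adjusted p = 0.0572). It passed without SASP mouse 2 (limma adjusted p = 0.0105) and without BBR mouse 3 (limma adjusted p = 0.0464). Without any other single mouse it moved away from the threshold (limma adjusted p from 0.113 to 0.188). Within a mouse, Tap1 relative to Tapbp differed by -2.84 on the log2 scale (exact permutation test, p = 0.1, adjusted p = 0.1).

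Among the proteasome genes, the inducible subunits Psmb8, Psmb9 and Psmb10 were all lower in BBR mice. They replace the constitutive catalytic subunits Psmb5, Psmb6 and Psmb7, respectively, to form the immunoproteasome. Psmb9 (16912) was at 19.36, 17.78 and 16.88 FPKM under BBR and at 216.53, 115.41 and 206.69 FPKM under SASP. The lowest SASP value was 5.96 times the highest BBR value. Its log2 fold change was -3.20 (SE 0.24, limma adjusted p = 0.00179), and the call held under all 16 alternatives.

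Psmb8 (16913) was at 42.55, 31.37 and 41.96 FPKM under BBR and at 263.32, 102.28 and 241.90 FPKM under SASP. SASP mouse 2 again lay nearest to the BBR mice. On the log2 scale it changed by -2.26 (SE 0.35, limma adjusted p = 0.0186). Leaving out BBR mouse 1 or 2 removed the call (limma adjusted p = 0.0654 and 0.0538), as did leaving out SASP mouse 1 or 3 (limma adjusted p = 0.0821 and 0.085).

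Psmb10 (19171) was at 73.16, 71.92 and 65.62 FPKM under BBR and at 257.18, 156.74 and 256.59 FPKM under SASP. SASP mice 1 and 3 were nearly equal, and mouse 2 lay between them and the BBR mice. Its change was -1.62 (SE 0.20, limma adjusted p = 0.00988), and the call was lost without SASP mouse 1 or 3 (limma adjusted p = 0.0557 and 0.0603).

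The constitutive counterparts differed far less. Psmb5 was at 85.61 to 89.63 FPKM under BBR against 95.38 to 108.71 FPKM under SASP, with a log2 difference of -0.20 (SE 0.10, limma adjusted p = 0.203). Psmb6 had a fold change of -0.32 (SE 0.10) and did not pass the test (limma adjusted p = 0.0755). Psmb7 was lower in BBR, with values of 83.46 to 85.37 against 115.43 to 128.84 FPKM and a log2 difference of -0.50 (SE 0.09, limma adjusted p = 0.0266).

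Transcripts of the inducible subunits were below those of their constitutive counterparts in every BBR mouse and above them in every SASP mouse. Psmb9 over Psmb6 was 0.284, 0.256 and 0.253 in BBR mice and 2.38, 1.46 and 2.40 in SASP mice. Psmb8 over Psmb5 was 0.475, 0.366 and 0.487 in BBR mice and 2.42, 1.06 and 2.54 in SASP mice. Psmb10 over Psmb7 was 0.868, 0.843 and 0.786 in BBR mice and 2.0, 1.36 and 2.21 in SASP mice. The log2 ratios differed by -2.88, -2.06 and -1.12, and no pair of groups overlapped (exact permutation test, two-sided p = 0.1 for each, adjusted p = 0.1). For these and the other ratios, the share of separated groups among other gene pairs was not computed. Of the 50-base stretches of Psmb5, 57.1% also occur elsewhere, among others in a pseudogene, so its level is the least certain of these.

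**Figure D2:**
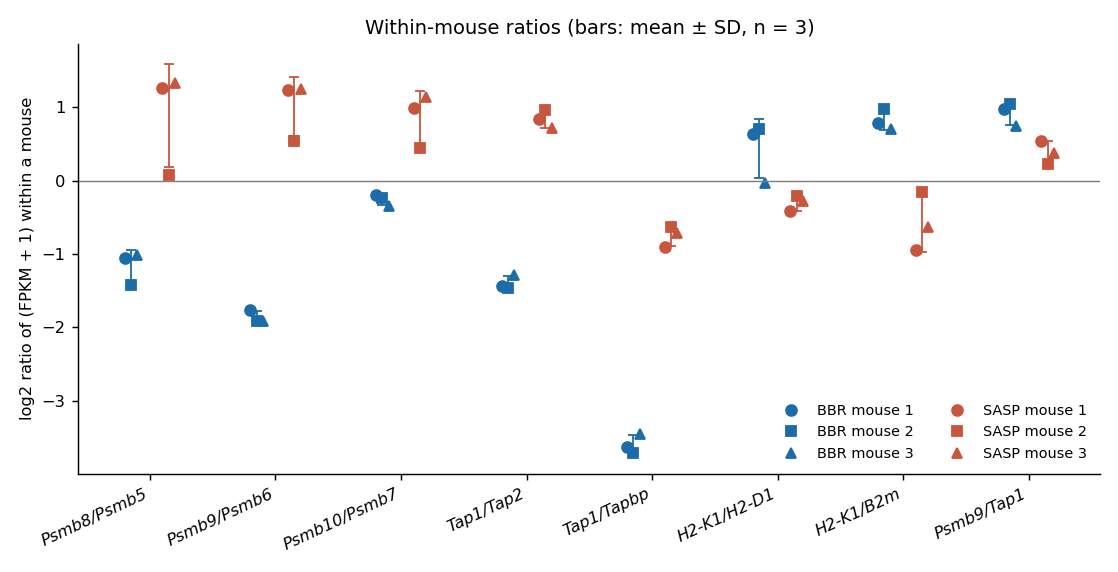
Log2 ratios of FPKM + 1 between genes of the same mouse, with BBR in blue and SASP in red, a symbol for each mouse and bars for mean ± SD (n = 3). All 8 ratios separate the groups, but how often ratios of other gene pairs do so was not computed. Tap1 to Tap2, with means of -1.40 in BBR and 0.84 in SASP, has small SDs in both.

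Nlrc5 (434341), the transactivator that acts on class I promoters, was the least abundant of the 10 genes. It was at 0.29, 0.36 and 0.54 FPKM under BBR and at 15.29, 6.24 and 12.64 FPKM under SASP. The lowest SASP value was 11.6 times the highest BBR value. By the estimated depth, the lowest BBR value corresponds to about 36 reads. Its fold change of -3.07 on the log2 scale (SE 0.30, limma adjusted p = 0.00482) understates the difference, because a pseudocount of 1 is large beside the BBR values. The ratio of the group means was 28.7 in favour of SASP. Without any 1 of the SASP mice, Nlrc5 fell below the filter and was not tested.

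**Figure D3:**
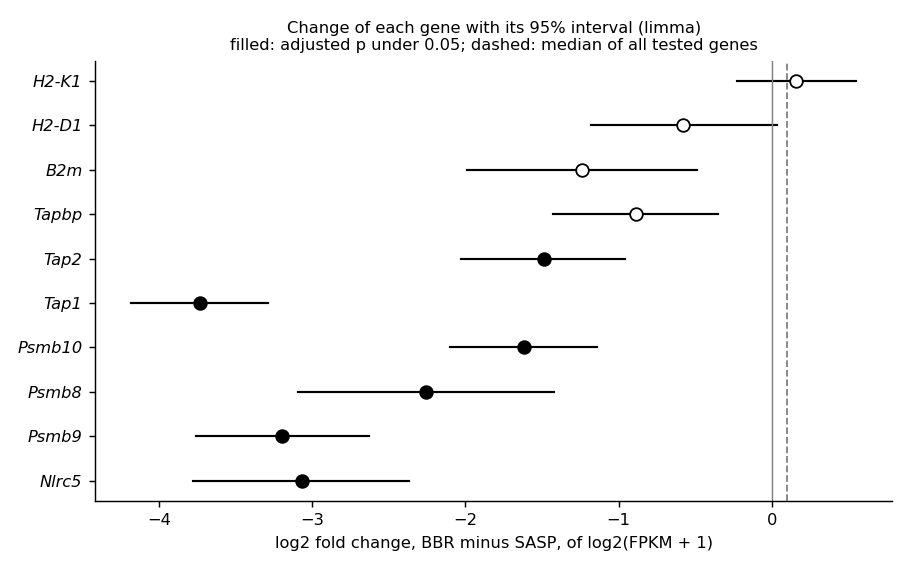
Log2 fold change, BBR minus SASP, of each gene with its 95% interval, filled where the limma adjusted p was under 0.05. Tap1, Psmb9 and Nlrc5 lie at or below -3.07, H2-K1 lies at 0.16 and the dashed line marks the median of all tested genes at 0.10.

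The differences were unequal in size among genes that act together. Tap1 and Psmb9 start from opposite strands of the stretch printed above, and in the RefSeq order of genes Psmb9, Tap1, Psmb8 and Tap2 are direct neighbours on chromosome 17. Psmb9 over Tap1 was 2.08, 2.18 and 1.74 in BBR mice and 1.46, 1.17 and 1.30 in SASP mice, a difference of 0.54 on the log2 scale. H2-K1 over B2m differed by 1.40 and H2-K1 over H2-D1 by 0.74. Each of these 3 ratios was higher in all BBR mice than in all SASP mice (exact permutation test, two-sided p = 0.1, adjusted p = 0.1).

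Mice within a group differed too. SASP mouse 2 was the lowest SASP mouse for 10 of the 10 genes, while it was the lowest for 25.4% of all tested genes. SASP mouse 1 was the highest for 8 genes and SASP mouse 3 for 2. Among BBR mice, mouse 2 was the lowest for 6 genes, mouse 3 for 3 and mouse 1 for 1. Over all tested genes BBR mouse 3 stood apart, as it was the lowest BBR mouse for 61.8% of them. SASP mouse 1 was the lowest SASP mouse for 47.5% of all tested genes.

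Around the class I molecule, other genes of peptide loading and trimming were examined. Of 7 measured, 3 were lower in BBR and 0 were higher, with a median log2 fold change of -0.55. Tapbpl, a tapasin-related peptide editor, was at 22.41, 24.36 and 18.74 FPKM under BBR and at 75.68, 52.01 and 86.71 FPKM under SASP, a change of -1.64 (SE 0.20, limma adjusted p = 0.00964). Erap1, the aminopeptidase that trims peptides in the endoplasmic reticulum, changed by -0.91 (SE 0.16, limma adjusted p = 0.0234), and Uggt1, a folding sensor of glycoproteins, by -0.47 (SE 0.10, limma adjusted p = 0.0346). The chaperones Calr, Canx and Pdia3 had changes of -0.68, -0.41 and -0.55 with groups that did not overlap, and did not pass the test (limma adjusted p = 0.0656, 0.059 and 0.0542). Bcap31, an export receptor, was at 125.48 to 131.66 FPKM under BBR against 114.86 to 127.40 FPKM under SASP.

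Of 9 activator and assembly genes of the proteasome 3 were lower and 0 higher, with a median of -0.54. Psme1 and Psme2, which form the interferon-inducible PA28 cap, changed by -1.31 and -1.19 (SE 0.24 and 0.23, limma adjusted p = 0.0267 and 0.0291), and the assembly factor Psmg4 by -1.02 (SE 0.18, limma adjusted p = 0.0234). Psme3 and Psme4, activators outside PA28 alpha and beta, had changes of -0.38 and -0.36 that did not pass. Of the 11 other subunits of the 20S core 7 were lower and 0 higher, with a median of -0.54. Psma5, Psma4 and Psma3 of the outer ring changed by -0.86, -0.74 and -0.64 (limma adjusted p = 0.0138, 0.0187 and 0.0205), and the 11 subunits ranged from -0.90 to -0.06.

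Cytosolic peptidases, which trim or destroy proteasome products, gave a single call in 7. Lap3, leucine aminopeptidase, was at 30.33, 27.15 and 29.91 FPKM under BBR and at 140.18, 102.73 and 147.47 FPKM under SASP. All SASP values were well above all BBR values, and the log2 fold change was -2.11 (SE 0.15, limma adjusted p = 0.00171). The other 6 peptidases did not pass, and the median of the 7 was 0.04.

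Of 12 factors that act on class I promoters, 2 were lower and 0 higher. Irf1, an interferon regulatory factor, was at 135.13, 115.70 and 128.21 FPKM under BBR and at 422.06, 328.99 and 484.24 FPKM under SASP, a change of -1.68 (SE 0.16, limma adjusted p = 0.00478). A further 10, among them the X box factors Rfx5, Rfxap and Rfxank, the Y box factors Nfya, Nfyb and Nfyc, and the NF-kB subunits Nfkb1 and Rela, did not pass, and the median of all 12 was -0.11.

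Of the interferon gamma axis, the ligand Ifng was listed at 0 in all 3 BBR mice and was at 1.19, 0.30 and 0.21 FPKM under SASP. It was too low to be tested, and its highest value corresponds to about 25 reads. Ifngr1 and Ifngr2, its receptor chains, and the kinases Jak1 and Jak2 did not pass, with changes of -0.07, 0.45, 0.16 and 0.20. Socs1, the feedback inhibitor of this pathway, was at 2.49, 1.71 and 5.97 FPKM under BBR and at 40.14, 19.53 and 34.45 FPKM under SASP. Its log2 fold change was -2.94 (SE 0.40, limma adjusted p = 0.0132).

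Other class I heavy chains, which are less polymorphic or of restricted use, gave 2 calls in 11 tested, with a median of -0.57. H2-Q4 was at 36.36, 37.38 and 33.06 FPKM under BBR and at 141.77, 59.72 and 130.40 FPKM under SASP, a change of -1.51 (SE 0.31, limma adjusted p = 0.0353). H2-T24 changed by -0.86 (SE 0.18, limma adjusted p = 0.0366). H2-T23, which presents leader peptides of other class I chains, was at 173.46 to 243.79 FPKM under BBR against 236.17 to 476.15 FPKM under SASP, and the groups overlapped. These genes resemble each other in sequence, and their separate values are uncertain.

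MHC class II genes, which serve the other presentation pathway, had a median of -1.39 over 8 tested, of which 2 were lower. Ciita, the class II transactivator related to Nlrc5, was at 0.58, 0.66 and 0.34 FPKM under BBR and at 9.26, 5.47 and 9.52 FPKM under SASP, a change of -2.54 (SE 0.22, limma adjusted p = 0.00289). It passed the filter through its SASP values alone, and its fold change is shrunk by the pseudocount, the ratio of the group means being 15.35 in favour of SASP. H2-DMb1, a chain of the class II peptide editor, changed by -2.62 (SE 0.53, limma adjusted p = 0.0342). The class II chains H2-Aa, H2-Ab1 and H2-Eb1 and the invariant chain Cd74 overlapped between the groups. SASP mouse 2 was inside the BBR range for each of these 4 and for H2-D1, and below it for H2-K1. It was above the BBR range for Ciita, H2-DMb1 and H2-DMa, and for the 8 class I presentation genes whose groups did not overlap.

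**Figure D4:**
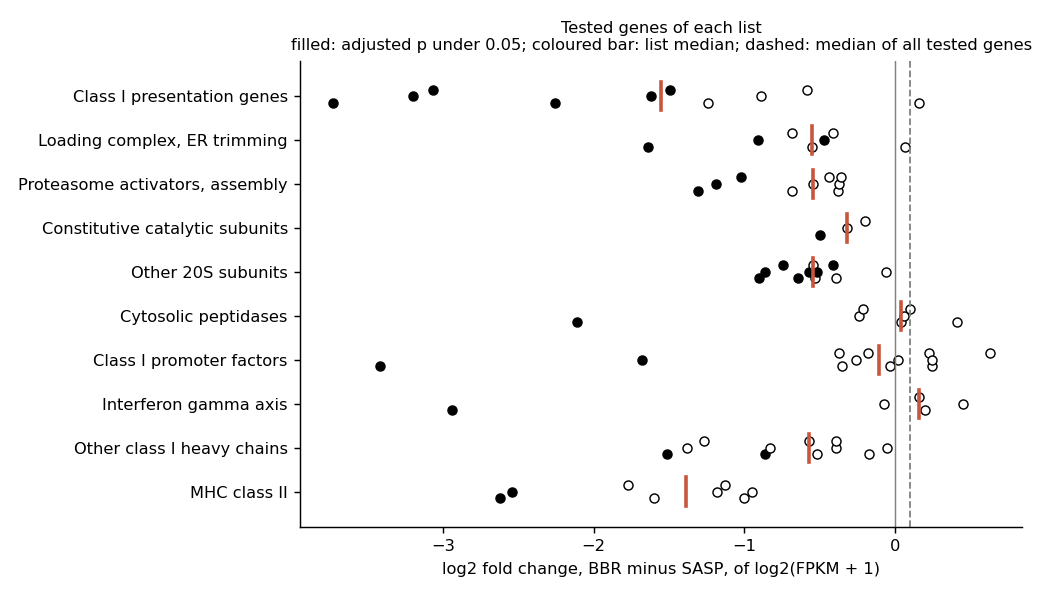
Log2 fold change of every tested gene in each gene list, filled where the limma adjusted p was under 0.05, with a coloured bar at the list median and a dashed line at the median of all tested genes, 0.10. Class I presentation genes have a median of -1.56, MHC class II genes -1.39, cytosolic peptidases 0.04 and promoter factors -0.11.

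By the shape of their values over the 6 samples, Cmpk2, H2-Q4, Nckap5 and Phf11d were among the 5 non-members most like the median of the 10 genes. The measure was the mean absolute difference between centred log2(FPKM + 1) values, which was 0.074 for Cmpk2, a mitochondrial nucleotide kinase, 0.085 for H2-Q4, 0.096 for Nckap5 and 0.118 for Phf11d. Nckap5 and Phf11d passed the filter through their SASP values alone. Their BBR values, 0.30 to 0.33 and 0.71 to 0.86 FPKM, were below the pseudocount of 1, which therefore shapes their match. Among the 10 genes themselves, Psmb10 (0.060) and Tap2 (0.068) lay nearest to the common median. Tap1 (1.065) and H2-K1 (0.882) lay farthest from it, on opposite sides.

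Markers of cell types were summed and tested in the same way. Of 14 epithelial markers, all tested, Krt18 and Cdx2 were higher and Vil1 was lower in BBR, and 6 had an unadjusted p under 0.05 in limma. Among these 6, Car1 was at 1200.32 to 2345.09 FPKM under BBR against 71.76 to 852.62 FPKM under SASP. Krt20 was at 245.24 to 550.61 FPKM against 622.99 to 898.99 FPKM. The summed level of the 14 markers was 10620 to 13490 FPKM under BBR against 10910 to 10950 FPKM under SASP. Opposite changes of single markers can cancel in this sum. Of 12 pan-leukocyte markers, 0 passed the test in limma (6 had an unadjusted p under 0.05), and the sum was 37.42, 51.02 and 31.29 FPKM under BBR against 98.72, 46.47 and 71.40 FPKM under SASP. Smooth muscle markers had fold changes above 0 for 10 of 10, 0 past the threshold in limma and 8 with an unadjusted p under 0.05, with sums of 2888 to 6808 FPKM under BBR against 757.2 to 2321 FPKM under SASP. Fibroblast markers had fold changes above 0 for 9 of 9, 4 past the threshold in limma and 7 with an unadjusted p under 0.05.

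Most transcripts that mark T, NK and dendritic cells were low in these libraries. Of 16 T and NK cell markers, 4 were tested, 0 were called in limma (0 at an unadjusted p under 0.05), and all 16 overlapped between the groups. Their sum was 9.56, 11.45 and 6.90 FPKM under BBR against 19.75, 7.01 and 14.26 FPKM under SASP. Of 10 dendritic cell markers, 6 were below 1 FPKM in every sample, and the single one called was Irf8 (-2.21, limma adjusted p = 0.00171), which is itself induced by interferon gamma. Of 12 macrophage markers 3 were lower, Cd14, Ccr2 and Fcgr1, the last of which passed the filter through its SASP values alone. The other 9 were not called. Fold changes were below 0 for 9 of the 12 and above 0 for Adgre1, Csf1r and Mrc1 (0.06, 0.12 and 0.42). Of 6 tested B and plasma cell markers 1 was lower (Cd79b, which passed the filter through its SASP values alone) and 1 higher (Sdc1), of 5 neutrophil markers 1 was lower, and of 8 endothelial markers 1 was higher. All 8 tested endothelial markers had fold changes above 0, 3 of them with an unadjusted p under 0.05 in limma.

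With these marker levels as a covariate, fewer genes kept their calls. With the smooth muscle score in the model, 2 of the 10 genes were lower, and with the pan-leukocyte score 2 were lower, Tap1 and Psmb9 in both cases. Over all tested genes, 17 and 29 were lower in these fits. The fold changes of the genes that lost their calls were -2.66 and -2.57 for Nlrc5, -1.73 and -1.75 for Psmb8, -1.27 and -1.24 for Psmb10, and -1.23 and -1.17 for Tap2. Those of the genes without a call in the reported fit were -0.66 and -0.73 for B2m and -0.47 and -0.47 for Tapbp. For H2-D1 they were -0.51 and -0.47, and for H2-K1 0.42 and 0.39. In SASP mouse 2 the pan-leukocyte sum (46.47 FPKM) lay within the BBR range, and the smooth muscle sum (2321 FPKM) lay below all BBR mice. In SASP mice 1 and 3 the pan-leukocyte sums (98.72 and 71.4 FPKM) lay above all BBR mice. Tap1 was at 98.51 FPKM in SASP mouse 2 against 8.16 to 9.70 FPKM in BBR mice. The part of cell composition in these differences was not tested.

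**Figure D5:**
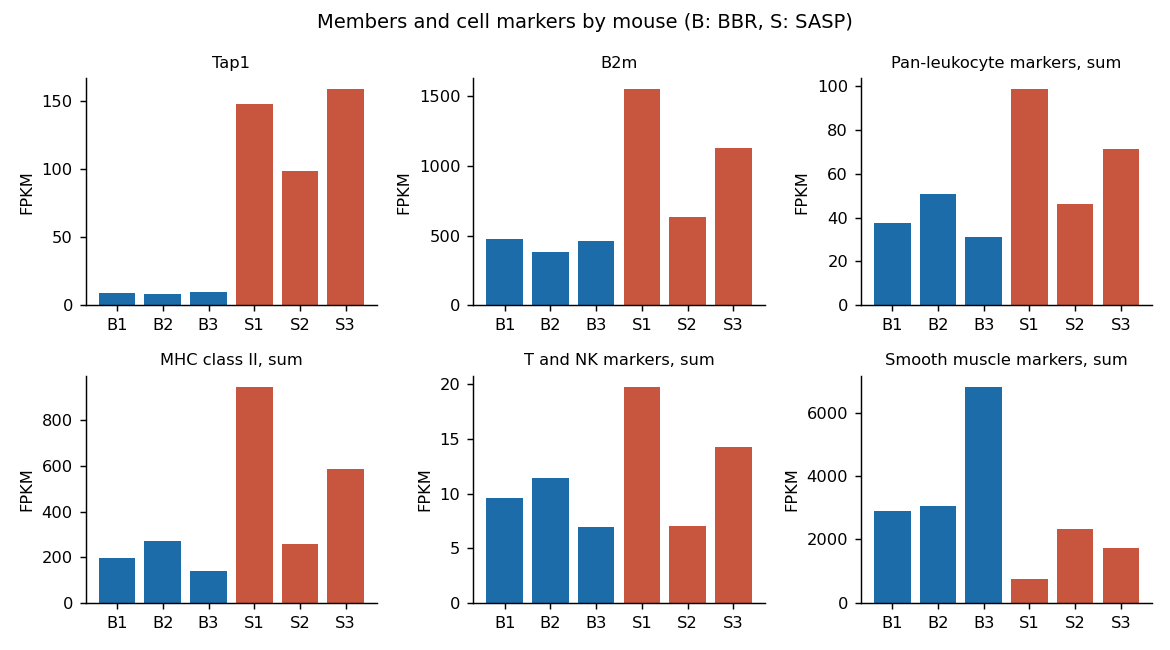
FPKM of Tap1 and B2m and summed FPKM of 4 marker lists in each mouse, with BBR mice in blue and SASP mice in red and all axes from 0. For SASP mouse 2, Tap1 stands far above the BBR mice, while the sums of pan-leukocyte, MHC class II and T and NK markers lie within the BBR range. The smooth muscle sum of SASP mouse 2 lies below all BBR mice.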

How the data were processed

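RNA was sequenced from colorectal tissue of 3 BBR and 3 SASP colitis mice. Groups were taken from the treatment labels, and numbers within a group followed the order of deposit and pair no mice. The authors deposited FPKM per gene, calculated with RSEM (1.2.12 in the submitters' processing notes) after alignment with Bowtie2 (2.2.5), and the notes name the build mm9. The methods of the study describe ribosomal RNA depletion and single-end reads of 50 bases, whereas the labels name an Illumina kit, and which was used is not settled here. No read counts were used. Depth was estimated from genes above 0 in a single sample with a transcript under 1500 bases. Each such value was taken as 1 read, and the median over these genes was used. The estimates were 16400000 to 16800000 reads for BBR and 16800000 to 18200000 for SASP, which is approximate.

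Values were transformed as log2(FPKM + 1), and the 12072 genes at 1 FPKM or more in 3 or more samples were compared with limma 3.58.1 in R 4.3.3 (empirical Bayes with a variance trend, two-sided, Benjamini-Hochberg, threshold 0.05). The step was tested on simulated data with independent noise for each gene, which hold no effect shared by a whole sample. Within-mouse ratios were compared by an exact permutation test (scipy 1.17.1), adjusted over 8 ratios. The genes and lists were chosen with earlier results of these data known, and the motifs with the promoters in view. Named beside the 10 genes were up to 3 called genes of each list with the smallest p, the partners of the ratios and the 5 genes most alike; Bcap31, H2-T23, Ifng, Calr, Canx, Pdia3 and further uncalled genes were named after their values were seen. Of the genes so selected, 2 are not reported here. Nrdc is listed as Nrd1. H2-Q5, H2-Q8 and H2-T9 were not matched. Shared stretches were counted in GENCODE M21 transcripts by exact match only. The alternatives were other pseudocounts, filters and scalings, no variance trend, array quality weights, a marker score as a covariate and leaving out each mouse.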

Additional observations from a re-analysis of the deposited data

How the results depend on the processing

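No alternative reversed a direction among the 10 genes. Tap1 and Psmb9 remained lower in all 16 alternatives. The number of the 10 genes called lower was 6 in the reported fit, 2 with a smooth muscle or a pan-leukocyte score as a covariate, 7 with median-ratio scaling, 8 with quantile normalization and 9 with array quality weights. Leaving out 1 mouse gave 2 (without SASP mouse 1 or 3, when Nlrc5 was not tested) to 9 (without BBR mouse 3), and 0 were higher throughout. The within-mouse ratios kept their direction in every setting run, and with 3 mice a group no p below 0.1 is possible.

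Over all tested genes, 608 were lower and 461 higher. These counts were 383 and 225 without the filter, 994 and 743 after quantile normalization, 1186 and 498 under median-ratio scaling, 2490 and 4636 with array quality weights, 17 and 2 with the smooth muscle score, and 29 and 5 with the pan-leukocyte score. Leaving out 1 mouse gave 45 to 1369 lower and 6 to 2649 higher, the upper ends without BBR mouse 3. Median-ratio scaling moved the median of all genes from 0.10 to -0.02, and calls that were higher made up 29.6% instead of 43.1%. The cause of these shifts was not tested. Low values limit Nlrc5 and Ifng.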
